A study of Homo sapiens with 6 samples.

Results

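Ribosome biogenesis genes are described here in DU145 cells treated with hepatocyte growth factor (HGF). The list holds 44 genes of nucleolar RNA processing, RNA polymerase I transcription and ribosome assembly. A gene was measured where a probe set carried its symbol and no other, which was the case for 39 of the 44 genes, by 79 probe sets, among 19775 genes measured in all. NOP56 and DKC1, core proteins of small nucleolar ribonucleoproteins, and BOP1 and PPAN, which act in large subunit assembly, had only probe sets shared with other symbols. GNL3, which encodes nucleostemin, had no probe set under its symbol. These 5 genes are without values below.

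DU145 is an androgen-independent human prostate cancer cell line, and HGF signals through the receptor c-MET. The 6 conditions were HGF at 25 ng/ml for 2, 8 and 24 h and vehicle for 2, 8 and 24 h. Cells of all 6 conditions had been moved to medium with charcoal-treated serum on the day before treatment. RNA of each condition was hybridised to 1 Affymetrix U133plus2.0 array, so a ratio of HGF over vehicle at one time has no replicate error and no p-value, and a single cell line is the only model. Signals were scaled to an array mean of 150, and those under a floor of 30 were set to 30. Ratios are log2 values of HGF over vehicle, and that of a gene is a mean of all its probe sets, of which those that never left the floor add a 0.

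A ribosome is built in the nucleolus. RNA polymerase I transcribes the precursor of the large ribosomal RNAs, small nucleolar ribonucleoproteins guide its chemical modification and cleavage, and a long series of assembly factors folds and trims the small (40S) and large (60S) subunits before export. Output of this pathway is known to follow growth signals, and the transcription factor MYC with its partner MAX is known to bind many promoters of these genes at the E-box, CACGTG.

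All 39 measured genes had a probe set above the floor in all 6 arrays, and 65 of the 79 probe sets were above it in at least 1 array. The arrays carried epithelial cells: 5 of 5 epithelial genes were above the floor in every array, with summed signals of 10715 to 15908 in HGF arrays and 11094 to 13535 in vehicle arrays. Of 4 measured leukocyte markers 0 were above the floor (highest signal 21.4), and of 5 fibroblast and endothelial markers 1 was (highest 97.3). The androgen-driven luminal genes were low, with 1 of 3 above the floor (highest 110.1). Deposited array means were 187 to 199 for HGF, and 200, 205 and 149 for the vehicle arrays of 2, 8 and 24 h. The vehicle array of 24 h was thus the lowest before scaling. The 3′ to 5′ ratio of ACTB, a measure of RNA integrity and labelling, rose with time in both groups. At 2, 8 and 24 h it was 1.13, 1.31 and 1.71 in HGF arrays and 1.17, 1.36 and 1.63 in vehicle arrays.

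Ratios of the ribosome biogenesis genes spread most widely at 8 h and less at 2 h and 24 h, as did those of all genes. At 8 h RRP9, MRTO4 and PES1 were higher with HGF and NOP58 was lower. At 24 h the single gene that passed was NIP7, higher with HGF. A gene passed the selection rule used here where 1 or more of its probe sets reached 2-fold and its mean log2 ratio reached 0.50 in the same direction. At 8 h 3 of 39 genes were higher and 1 was lower by this rule, beside 4.93% higher and 14.6% lower among the 10791 genes above the floor. At 24 h 1 gene was higher and 0 were lower, beside 1.91% and 1.02% of all genes. At 2 h 0 genes were higher and 0 lower, beside 0.769% and 0.102%. Less RNA per cell and fewer cells of a kind cannot be told apart in such bulk RNA.

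The median log2 ratio of the 39 genes was 0.04 at 2 h, 0.15 at 8 h and 0.16 at 24 h, beside -0.02, -0.02 and 0.01 for all genes above the floor. At 8 h the genes spread widely, with an interquartile range of 0.58, and the same range over all genes was 0.70. At 2 h and 24 h the interquartile range was 0.27 and 0.22, against 0.20 and 0.29 over all genes. Ratios above 0 were counted in 26, 26 and 31 of the 39 genes at 2, 8 and 24 h, while 38.4%, 45.3% and 51.2% of all genes were above 0. The 39 genes were above the floor in all 6 arrays, but all genes here include dimmer ones above it in as few as 1. With only probe sets of a mean of at least 100, 28, 25 and 31 of 38 genes were above 0. Of all genes 42.2%, 49.7% and 59.1% were then above 0, and their 24 h median was 0.07, beside 0.19 for the 38. With quantile normalization the median was 0.052, 0.30 and 0.062, against 0.00, 0.063 and 0.00 over all genes. The 8 h and 24 h medians thus both depended on the scaling, the first being larger and the second smaller with quantile normalization. By the rule 6 genes were then higher and 1 lower at 8 h (10.0% and 9.27% of all genes), and 0 higher and 0 lower at 24 h (1.64% and 1.08%). With a mean log2 ratio of 0.50 as the sole criterion and without quantile normalization, 12 genes were higher and 5 lower at 8 h (15.4% and 21.2% of all genes). By the same criterion 1 was higher at 2 h (2.18%) and 2 were higher at 24 h (5.73%), and none was lower at either time (2.15% and 3.98%).

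**Figure D1:**
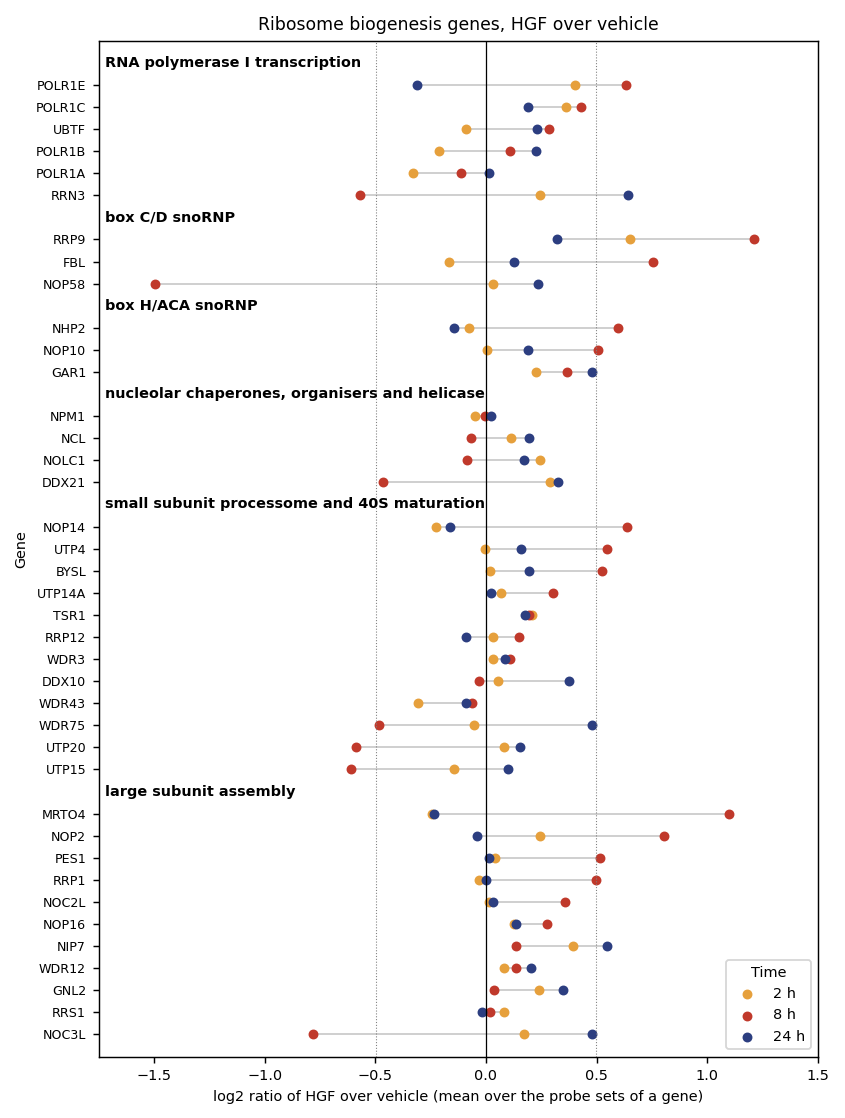
Log2 ratio of HGF over vehicle (x axis, mean over the probe sets of a gene) for each of the 39 measured genes, grouped by role and sorted by the 8 h ratio. Points are 1 pair of arrays each, at 2, 8 and 24 h, and dotted lines mark a log2 ratio of 0.50 in either direction. The 8 h points reach 1.21 for RRP9 and -1.50 for NOP58, while the 2 h and 24 h points lie between -0.33 and 0.65.

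Promoter E-boxes of 8 genes are shown, because the motif is the known contact of MYC in this gene class and genes at both ends of the 8 h range carry it. They are the 4 genes with the highest 8 h ratio, PES1 and GAR1, on which later results turn, and the 2 lowest genes with the motif, and they were chosen after their values were seen. Each line gives 30 bases around the motif in capitals, 5′ to 3′ on the strand of the gene, from RefSeq promoter windows of GRCh38.p14 that run from 250 bases before to 50 bases after the start site.
RRP9, chr3:51941892-51941921, minus strand: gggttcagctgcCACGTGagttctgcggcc
MRTO4, chr1:19251807-19251836, plus strand: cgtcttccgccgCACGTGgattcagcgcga
NOP2, chr12:6568242-6568271, minus strand: gctaggtccggattgCACGTGgagggccgc
FBL, chr19:39846356-39846385, minus strand: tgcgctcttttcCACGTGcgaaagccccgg
PES1, chr22:30591880-30591909, minus strand: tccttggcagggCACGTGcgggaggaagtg
GAR1, chr4:109815781-109815810, plus strand: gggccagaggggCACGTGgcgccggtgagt
UTP20, chr12:101280083-101280112, plus strand: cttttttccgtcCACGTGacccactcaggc
NOC3L, chr10:94362903-94362932, minus strand: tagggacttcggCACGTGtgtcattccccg
CACGTG reads the same on both strands, and no other motif was searched. Counted from the start site of its window, the motif began at base -5 in RRP9, 15 in MRTO4, 36 in NOP2, 7 in FBL, 14 in PES1, 32 in GAR1, -10 in UTP20 and 20 in NOC3L. Some genes have windows at several start sites, 40 windows for 34 genes, and the start sites used for PES1 and GAR1 lie inside the annotated gene. NOP14, UTP4 and BYSL also held the motif and had 8 h ratios above that of PES1. Of the 4 lowest genes NOC3L and UTP20 held it, UTP15 did not, and NOP58 has no window in the table.

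Of the 34 measured genes with a window, 16 held the motif in at least 1 window (47.1%), against 13.0% of the 8913 genes above the floor with a window and 8.77% of all 27305 genes with one. POLR1E, NOLC1, RRP12 and RRS1 had no window in the table either. Among assembly factors outside the list 25 of 62 held it (40.3%), among RNA polymerase III genes 6 of 16 (37.5%), and among ribosomal protein genes 2 of 31 (6.45%). At 8 h the 16 genes with the motif had a median log2 ratio of 0.51 and ran from -0.78 to 1.21, and the 18 without it had a median of 0.12 and ran from -0.61 to 0.60. The 2 sets overlapped over most of their range. With quantile normalization these medians were 0.48 and 0.21. At 2 h the medians were 0.06 with and 0.02 without the motif, and at 24 h 0.16 and 0.18. Over all genes above the floor the 8 h median was 0.00 with the motif and -0.03 without it. A match describes letters in the window and not a site that was bound in these cells.

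Among the 6 genes of RNA polymerase I transcription the 8 h median was 0.20, with 4 above 0 and 2 below, and 0 passed the selection rule in either direction at any time. POLR1C, a subunit shared by RNA polymerases I and III, read 551, 481 and 493 in the HGF arrays of 2, 8 and 24 h, against 376, 327 and 380.5 in the vehicle arrays. Its lowest HGF array lay above its highest vehicle array, and so did the mean over its 2 probe sets. The gene ratios were 0.36, 0.43 and 0.19. POLR1E, another polymerase I subunit, read 367, 397 and 253 with HGF, against 336, 303 and 272 with vehicle. The HGF array was the higher one at 2 h and 8 h and the lower one at 24 h, with gene ratios of 0.40, 0.63 and -0.31. Its other probe sets were dim, and 1 of them was under the floor in the vehicle array of 8 h and the HGF array of 24 h, so that part of these ratios is set by the floor.

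RRN3, the initiation factor that couples RNA polymerase I to its promoter, changed order between the times. Its probe set read 347, 226 and 324 with HGF, against 293, 335 and 208 with vehicle, so the HGF array was lower at 8 h and higher at 24 h. The ratios were 0.24, -0.57 and 0.64. Further probe sets of RRN3 are shared with its pseudogenes RRN3P1 and RRN3P2, and the suffix of the probe set used marks probes that match several transcripts, so the signal may hold RNA of near-identical copies. POLR1A, the largest and catalytic subunit, was dim, with 66.5, 78.6 and 68.1 in HGF arrays and 77.9, 85.5 and 72.5 in vehicle arrays. This probe set was below vehicle in 3 of 3 pairs, but its other probe sets were not. The gene ratios were -0.33, -0.11 and 0.01, and the lowest of these was the lowest of all 39 genes at 2 h. POLR1B, the other large subunit, had ratios of -0.21, 0.11 and 0.23. UBTF, which binds the ribosomal RNA gene promoter, had ratios of -0.09, 0.29 and 0.23. With quantile normalization POLR1E and UBTF passed the selection rule as higher at 8 h, as did RRP1 among the large subunit genes.

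The box C/D genes, whose proteins guide methylation and cleavage of ribosomal RNA, held both extremes at 8 h. RRP9, the protein specific to the U3 particle, read 128, 220.0 and 156 in the HGF arrays of 2, 8 and 24 h, against 81.5, 94.8 and 125 in the vehicle arrays. Every HGF array was above every vehicle array, and the HGF array of 8 h was the highest of the 6. The folds were 1.57, 2.32 and 1.25, with log2 ratios of 0.65, 1.21 and 0.32. RRP9 was read by a single probe set well above the floor, so other floors and probe set summaries could not change its ratio. At 8 h it was higher by the selection rule in 11 of 11 alternative settings, with ratios of 1.13 to 1.45. Among these settings only those of normalization and reference could have changed the call. It did not pass with 3-fold in place of 2-fold.

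FBL, fibrillarin, the methyltransferase of these particles, read 2398, 3451 and 2844 with HGF, against 2695, 2043 and 2604 with vehicle. The HGF array of 8 h was the highest of all and the vehicle array of 8 h the lowest, and at 2 h the HGF array lay below its vehicle array. The ratios were -0.17, 0.76 and 0.13, and the probe set did not reach 2-fold. NOP58, a scaffold protein of the same particles, read 477, 233 and 359 with HGF, against 467, 658 and 305 with vehicle. At 8 h its HGF array was the lowest and its vehicle array the highest of all 6, and at 2 h and 24 h the arrays of a pair were close. The ratios were 0.03, -1.50 and 0.24. With the vehicle arrays of 2 and 24 h averaged as its reference, a setting added after seeing the data, the 8 h ratio of NOP58 was -0.69 and short of 2-fold. The gene was also short of the rule against the mean over the 3 vehicle arrays (-0.96).

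All 3 measured box H/ACA genes, whose proteins guide pseudouridylation of ribosomal RNA, were above 0 at 8 h, with a median of 0.51, and 0 passed the selection rule. GAR1 read 479.7, 454 and 429 in HGF arrays, against 411, 351.4 and 307 in vehicle arrays. All 3 HGF arrays of GAR1 lay above all 3 vehicle arrays, and both were lower at the later times. The ratios were 0.22, 0.37 and 0.48. NHP2 read 2132, 3095 and 2556 with HGF, against 2249, 2046 and 2824 with vehicle, so the HGF array was the higher one only at 8 h. Its ratios were -0.08, 0.60 and -0.14. NOP10 read 2549, 3369.6 and 3906 with HGF, against 2542, 2374 and 3421 with vehicle. The vehicle array of 24 h was above the HGF array of 8 h, and the ratios were 0.00, 0.51 and 0.19.

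The 4 nucleolar chaperones and organisers were near or below 0 at 8 h, and 0 passed the rule at any time. NPM1, nucleophosmin, read 5387, 5104 and 5976 with HGF, against 5364, 5093 and 5523 with vehicle. Its 6 arrays were close to each other, and the gene ratios over 3 probe sets were -0.05, 0.00 and 0.02. NCL, nucleolin, read 2832, 2416 and 2497 with HGF, against 2419, 2658 and 1903 with vehicle, and its ratios were 0.11, -0.07 and 0.20. The HGF array was the lower one at 8 h only. DDX21, an RNA helicase that also contacts RNA polymerase I genes, had ratios of 0.29, -0.46 and 0.33, and was likewise below 0 at 8 h only. NOLC1, the snoRNP chaperone Nopp140, had ratios of 0.24, -0.09 and 0.17.

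The 12 genes of the small subunit processome and 40S maturation divided at 8 h into 7 above 0 and 5 below, with a median of 0.13 and 0 passing the selection rule. With quantile normalization 9 were above 0. UTP4, a subunit of the complex that binds the nascent precursor first, read 1247, 1708 and 1076 in HGF arrays, against 1199.8, 1059 and 949 in vehicle arrays. The HGF array of 8 h was the highest, and the gene ratios were 0.00, 0.55 and 0.16. NOP14, a processome protein, read 184, 236 and 175 with HGF, against 215, 152 and 196 with vehicle. Its HGF array was above its vehicle array at 8 h and below it at 2 h and 24 h, with ratios of -0.23, 0.64 and -0.16. BYSL, bystin, a protein needed for 40S maturation, read 599, 659 and 631 with HGF, against 592, 458 and 551 with vehicle. All 3 HGF arrays of BYSL were above all 3 vehicle arrays, by a narrow gap, and the ratios were 0.02, 0.53 and 0.20.

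The low genes of this class at 8 h were UTP15, UTP20 and WDR75. UTP15, which belongs to the same complex as UTP4, read 138, 88.1 and 137 with HGF, against 165, 159.5 and 119 with vehicle. Its HGF array of 8 h was the lowest of all, and the ratios over 2 probe sets were -0.14, -0.61 and 0.10. UTP20, a large scaffold of the processome, read 222, 184 and 188 with HGF, against 209.8, 277 and 169 with vehicle, with ratios of 0.08, -0.59 and 0.15. The vehicle array of 8 h was its highest array. WDR75, also of the UTP4 complex, had ratios of -0.06, -0.48 and 0.48.

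WDR43, of the same complex, was below vehicle in 3 of 3 pairs by the mean over probe sets, the only such gene of the list by that measure. It read 102, 85.5 and 115 in HGF arrays, against 126, 89.2 and 122 in vehicle arrays. The groups overlapped, and with quantile normalization its 8 h ratio was 0.24, where the ratio after scaling was -0.06. TSR1, a GTPase-like factor of late 40S maturation, read 1049.7, 1175 and 979 in HGF arrays by its brightest probe set, against 936, 929 and 815 in vehicle arrays. Its ratios were nearly equal over time, at 0.21, 0.20 and 0.18. The remaining 4 genes, WDR3, UTP14A, RRP12 and DDX10, had ratios between -0.09 and 0.37 over the 3 times. The probe sets of RRP12 differed, with a log2 ratio of 0.93 at 8 h for the brightest and -0.18 for another, so that its gene ratio of 0.15 averages unlike readings.

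Of the 11 measured genes of large subunit assembly 10 were above 0 at 8 h, with a median of 0.28, and 10 were above 0 with quantile normalization as well. MRTO4, a pre-60S factor related to the ribosomal stalk protein, read 778, 888 and 579 with HGF, against 776, 659 and 610.4 with vehicle by its brightest probe set. The other probe set read 72.5, 123 and 46.8 with HGF, against 102, 36.1 and 61.6 with vehicle. Both probe sets were highest in the HGF array of 8 h, but their sizes differed, with log2 ratios of 0.43 and 1.77 at that time. The gene ratios were -0.24, 1.10 and -0.24, and the call at 8 h was lost with the brightest probe set alone, with probe sets of a mean of at least 100, and with the vehicle arrays of 2 and 24 h as reference.

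PES1, which forms the PeBoW complex with BOP1 and WDR12, read 333, 787 and 285 with HGF, against 314, 385 and 279 with vehicle. The HGF array of 8 h was the only one to stand apart, at 2.04 times its vehicle array. A further probe set stayed under the floor in all 6 arrays, so the gene ratio at 8 h was 0.52 where the probe set that was read gave 1.03. Without a floor the gene ratio was 0.48 and PES1 did not pass. WDR12 had gene ratios of 0.08, 0.14 and 0.20, and BOP1 was not measured. NOP2, which methylates the RNA of the large subunit, read 465, 619 and 373 with HGF, against 393, 355 and 384 with vehicle. The HGF array of 8 h was its highest, and the ratios were 0.24, 0.80 and -0.04. RRP1, NOC2L and NOP16 had 8 h ratios of 0.50, 0.36 and 0.28.

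NOC3L, which acts with other NOC proteins on pre-60S particles, was the one large subunit gene below 0 at 8 h. It read 867, 506 and 913 in HGF arrays, against 769, 870.4 and 655 in vehicle arrays. At 8 h its HGF array was the lowest of all 6, and at 2 h and 24 h it was above vehicle. The ratios were 0.17, -0.78 and 0.48. NIP7, a factor of 60S production, read 904, 889.8 and 853 with HGF, against 699, 629 and 423 with vehicle. In this probe set all HGF arrays were above all vehicle arrays, and the 24 h fold was 2.02. The other probe set of NIP7 read 371, 325 and 246 with HGF, against 279, 379 and 233 with vehicle, and there the groups overlapped. The gene ratios were 0.39, 0.14 and 0.55, and at 24 h the gene no longer passed the rule with quantile normalization (0.41) or with the 3 vehicle arrays averaged as its reference (0.17). GNL2, a GTPase of pre-60S export, had ratios of 0.24, 0.04 and 0.35, and RRS1 had ratios of 0.08, 0.02 and -0.02.

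**Figure D2:**
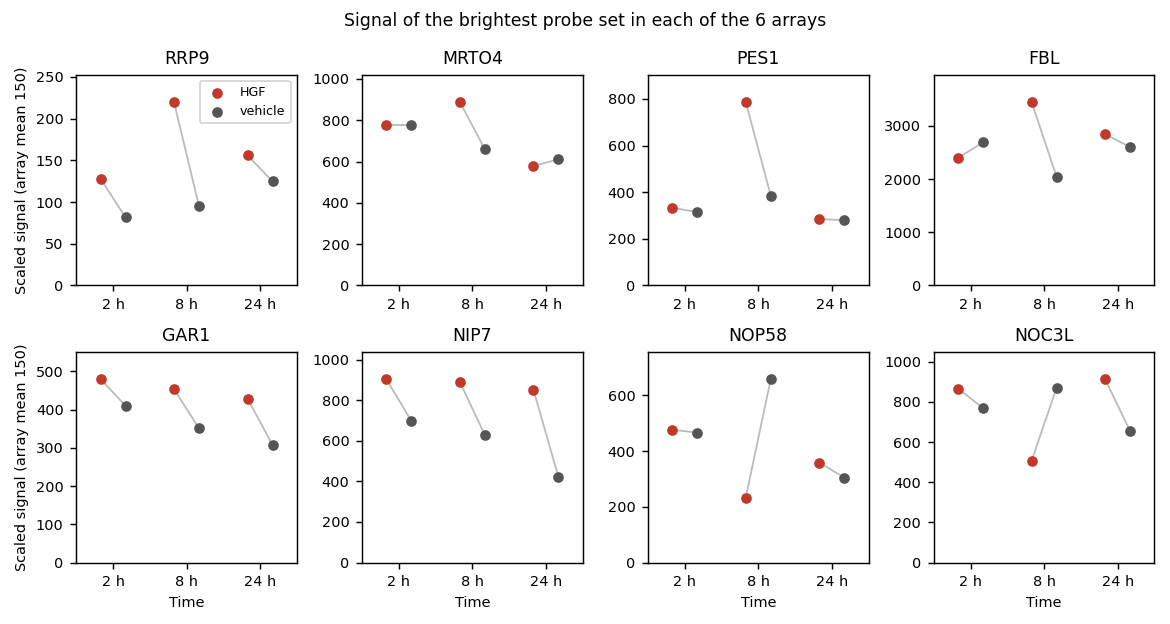
Scaled signal (y axis, linear, array mean 150) of the brightest probe set of 8 genes in each of the 6 arrays, with HGF left of vehicle at 2, 8 and 24 h on the x axis and a line joining the arrays of 1 time. RRP9, GAR1 and NIP7 have every HGF array above every vehicle array, PES1 stands apart in the HGF array of 8 h alone (787), and NOP58 and NOC3L are lowest there (233 and 506).

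Without HGF the vehicle arrays also differed, which is the only measure of spread and includes time in culture. By the selection rule MRTO4 was lower in the 8 h than in the 2 h vehicle array (-0.87, 1 of 39 genes lower and 0 higher, beside 0.361% and 0.519% of all genes). NOP58 was lower in the 24 h than in the 8 h vehicle array (-1.11, 1 lower and 0 higher, beside 5.50% and 0.454%). Between 24 h and 2 h 0 genes passed in either direction, beside 2.14% lower and 0.259% higher. The median of the 39 genes was -0.02 for 8 h over 2 h, -0.13 for 24 h over 2 h and -0.19 for 24 h over 8 h, and over all genes it was 0.00, -0.07 and -0.08. These comparisons share arrays with each other and with the ratios of HGF over vehicle. In the vehicle array of 24 h 33 of 39 genes were below the 2 h array, but 22 of 39 were so with quantile normalization.

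**Figure D3:**
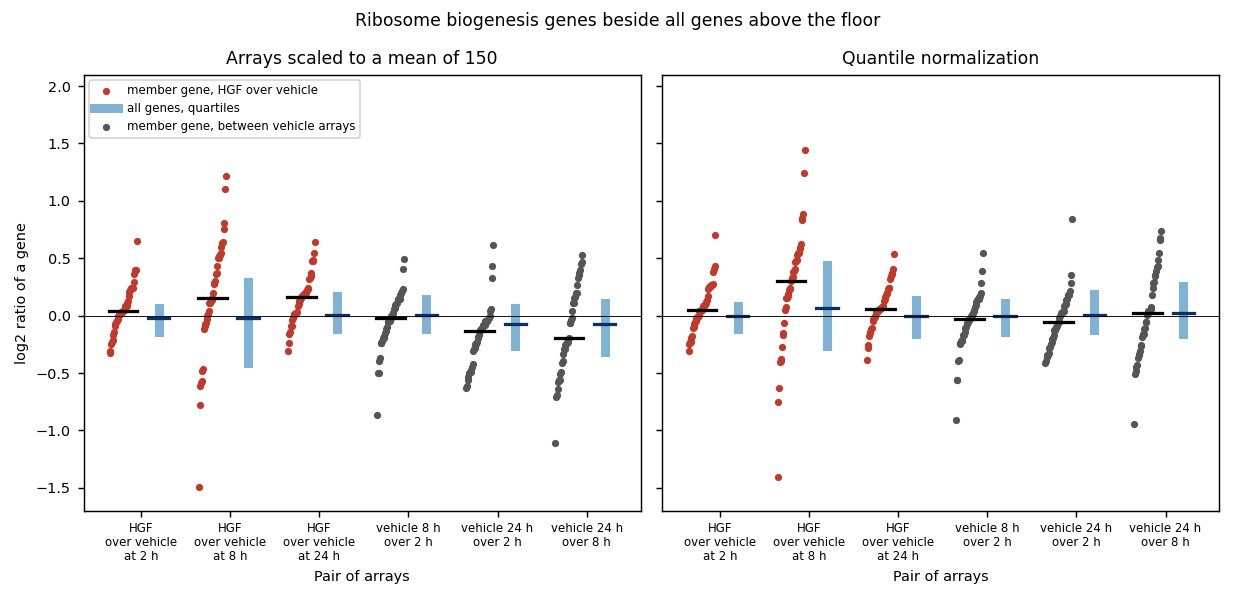
Log2 ratio of each of the 39 genes (points, black line the median) beside the quartiles and median of all genes above the floor (blue), for 3 pairs of HGF over vehicle and 3 pairs of vehicle arrays on the x axis. The left panel shows arrays scaled to a mean of 150 and the right panel quantile normalization. The 8 h pair of HGF over vehicle is the widest, for all genes (interquartile range 0.70) as for the 39 (0.58).

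Over the 3 times together, 6 of 39 genes had every HGF array above every vehicle array, by the mean over probe sets (15.4%). These were BYSL, GAR1, NOP16, POLR1C, RRP9 and WDR12, and the same held for 5.16% of the 9982 genes that left the floor in 3 or more arrays. Of the 39 genes 0 had every HGF array below every vehicle array, beside 4.58%. With quantile normalization 6 genes were again without overlap, GAR1, NOP16, POLR1C, TSR1, WDR12 and WDR3, beside 5.83% of genes, and 4 of these names were without overlap by both scalings. Every HGF array was below every vehicle array for 0 of the 39 then, beside 4.65%. In the scaled values of the brightest probe set the groups overlapped for NOP16 (HGF 673 to 870, vehicle 578 to 712). They also did for WDR12 (HGF 514 to 588, vehicle 441 to 582). A dimmer probe set of each was without overlap, and that of WDR12 lay near the floor (HGF 37.2 to 42.8, vehicle 27.0 to 32.8). The HGF array was the higher one in 3 of 3 pairs for 14 of 39 genes (12.0% of all genes) and the lower one for 1 (14.0%), and with quantile normalization for 11 (13.7%) and 0 (12.0%).

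A shared effect of HGF was tested with limma over the 6 arrays with the time as a block, so that the times serve as replicates. By limma 0 of 39 genes and 0 of 9982 genes passed an adjusted p of 0.05. At an unadjusted p under 0.05 limma gave 2 of the 39 genes, both higher, beside 2.54% of all genes higher and 1.49% lower. Without the 8 h arrays 6 of the 39 genes were under this p, RRP9, GAR1, NIP7, RRN3, DDX21 and GNL2, beside 7.5% of all genes in either direction. Without the 2 h or the 24 h arrays 1 was, RRP9, beside 3.49% and 4.89% of all genes. RRP9 had a mean log2 ratio of 0.73 (SE 0.21, limma adjusted p = 0.912) and was higher in 3 of 3 pairs. GAR1 had 0.36 (SE 0.13, limma adjusted p = 0.912), also higher in 3 of 3 pairs. An adjusted p above the threshold does not show that levels were alike.

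Gene length moved with the 8 h ratio. Across the 39 genes Spearman's rho between length in the RefSeq annotation and the 8 h ratio was -0.48, and across 10783 genes above the floor it was -0.35. With quantile normalization rho was -0.36 and -0.34. Genes are not independent replicates, and all points share the same pair of arrays. The 20 shorter genes, of 1.42 to 23.8 kb, had an 8 h median of 0.33 with 16 above 0. The 19 longer genes, of 24.3 to 276 kb, had a median of 0.04 with 10 above 0. RRP9 (8.48 kb), MRTO4 (8.32 kb), NOP2 (11.4 kb) and FBL (11.9 kb) were short, while NOP58 (37.9 kb), NOC3L (48.0 kb) and UTP20 (107 kb) were long, but UTP15 (17.6 kb) was low and short. At 2 h rho was -0.16 across the 39 genes and -0.01 across all genes, and at 24 h it was 0.13 and 0.11. Between the vehicle arrays of 24 h and 8 h rho was -0.28 across the 39 genes and -0.34 across all. The part of gene length in the 8 h ratios was not tested.

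**Figure D4:**
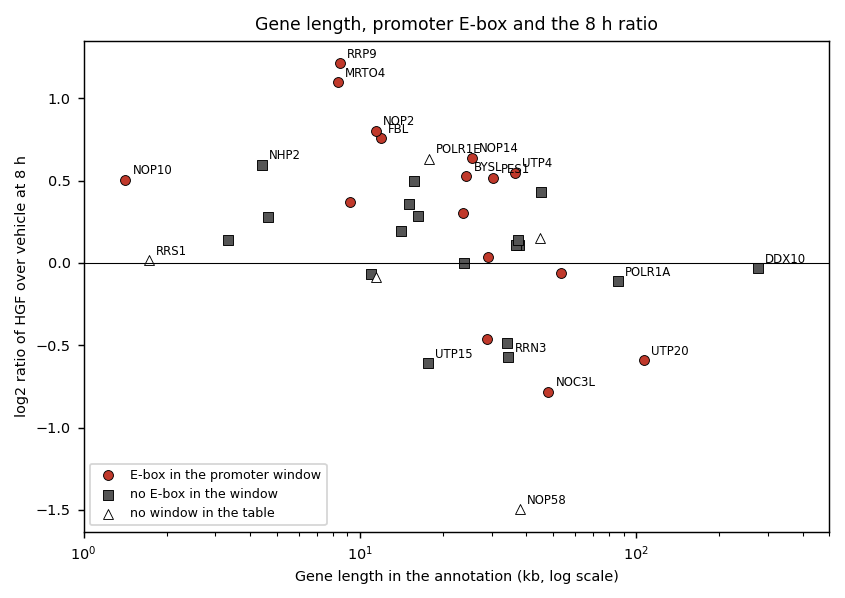
Log2 ratio of HGF over vehicle at 8 h (y axis) against gene length in kb (x axis, log scale) for the 39 genes, marked by whether the promoter window holds CACGTG. The 4 highest genes carry the motif and are under 12 kb long, and the genes with the motif also include NOC3L (-0.78) and UTP20 (-0.59).

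Assembly factors outside the list passed the rule at 8 h no more often than all genes did. Of 72 measured assembly factors outside the list, 3 were higher and 6 lower at 8 h, beside 4.93% and 14.6% of all genes, with a median of 0.09. With quantile normalization 7 were higher and 5 lower, beside 10.0% and 9.27%, with a median of 0.22. The higher genes were NOC4L (1.20), RRP7A (1.13) and DDX56 (0.51). NOC4L, of the small subunit processome, read 129, 235 and 159 with HGF, against 141, 102 and 153 with vehicle. NOL8 (-1.51), RRP15 (-1.21), NMD3 (-0.89), UTP23 (-0.88), WDR36 (-0.82) and SDAD1 (-0.73) were lower. NMD3, the export adaptor of the large subunit, read 794, 546 and 876 with HGF, against 799, 853 and 623 with vehicle, so its HGF array was lowest at 8 h and highest at 24 h. At 2 h and 24 h 0 of these 72 genes passed. Their 24 h median was 0.14 with 55 above 0, and 0.10 with 45 above 0 with quantile normalization.

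Among 14 further RNA polymerase I subunits and factors 0 were higher and 4 lower at 8 h, beside 4.93% and 14.6% of all genes. TAF1D (-1.51) and TAF1B (-0.59) belong to the factor that selects the ribosomal RNA promoter, and POLR1F (-0.51) and POLR2K (-0.90) are polymerase subunits, the last shared by RNA polymerases I, II and III. TAF1D read 164, 77.9 and 146 in HGF arrays, against 139, 222 and 129 in vehicle arrays, and its HGF array of 8 h was the lowest. With quantile normalization 1 of the 14 was higher and 2 were lower, beside 10.0% and 9.27%. Of 20 RNA polymerase III genes 0 were higher and 1 was lower at 8 h, POLR3G (-0.69), beside the same 4.93% and 14.6%. With quantile normalization 2 were higher and 0 lower, beside 10.0% and 9.27%. At 2 h and 24 h 0 genes of either list passed.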

How the data were processed

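DU145 cells were profiled on 6 arrays, 1 for each of HGF and vehicle at 2, 8 and 24 h, grouped by the sample labels. The values the authors deposited are linear intensities of 54675 probe sets. The submitters' processing notes name MAS5, whose version is not given in the sources used here. In the study's methods are named quantile normalization, an array mean of 150 and a floor of 30. The deposited intensities hold none of these steps, so both scaling and floor were added, and quantile normalization was an alternative. Of 42898 annotated probe sets, 41097 carry 1 symbol and 1801 several. The other 11777 probe sets are not annotated and unnamed here. 6 control probe sets were left out.

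The number of arrays limits the precision. limma (lmFit, eBayes, Benjamini-Hochberg, threshold 0.05) was fitted over 9982 genes with the time as a block. On simulated data the selection rule, run on 19775 genes, took 65 of 100 genes shifted by 1 on the log2 scale, 95 of 100 shifted by 2 and 21 of 19575 unchanged genes. limma, run on 9855 genes, took 41, 95 and 0 of 100, 100 and 9655. A shift at a single time was not simulated. Nor was the wider difference of the 24 h from the 8 h vehicle array, where the rule took 5.50% of genes as lower. These rates may therefore not hold for the measured arrays.

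The genes and all lists were chosen with earlier results of these data known. Array values are given for the 4 highest and 4 lowest genes at each time, genes that passed the selection rule, the brightest 2 genes of each role, and others chosen after their values were seen. From the other lists up to 4 genes with the largest ratio were to be given, and the further genes that passed the rule are named with them. Values are of the brightest probe set, the one with the highest mean signal. Alternatives were other floors, normalizations, summaries of probe sets, references and thresholds. Motifs were searched in RefSeq promoter windows. Computation used limma 3.58.1 in R 4.3.3, and Python 3.11.15 with pandas 2.3.3, numpy 2.4.6, matplotlib 3.10.9 and scipy 1.17.1.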

Additional observations from a re-analysis of the deposited data

Results flagged for a closer look

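RRN3 moved in opposite directions at 8 h and 24 h. Its log2 ratio of HGF over vehicle was -0.57 at 8 h and 0.64 at 24 h, from 1 probe set and 1 pair of arrays each. The difference between the times was not tested.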

How the results depend on the processing

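With no floor 3 genes were higher and 1 lower at 2 h, 5 and 4 at 8 h, and 6 and 2 at 24 h, since values near 0 then enter the ratios. The shares of all genes were 7.02% and 6.79%, 9.83% and 26.9%, and 8.61% and 9.66%. With a mean log2 ratio of 0.50 alone 1 was higher at 2 h (2.18% of all genes) and 2 at 24 h (5.73%). At 8 h 12 were higher and 5 lower by it (15.4% and 21.2%). With 3-fold in place of 2-fold 1 gene, MRTO4, was higher and 0 lower at 8 h (0.630% and 4.62% of all genes), and 0 were higher at 24 h (0.417%). With quantile normalization 6 were higher at 8 h (10.0% of all genes) and 0 at 24 h (1.64%). The median ratio was then 0.30 at 8 h and 0.062 at 24 h, beside 0.063 and 0.00 over all genes. Against the mean of the 3 vehicle arrays 3 were higher and 0 lower at 8 h, beside 2.82% and 7.67% of all genes. At 24 h 0 were higher by that reference, beside 1.46%. The medians were then 0.13, 0.24 and 0.049 at 2, 8 and 24 h, beside -0.01, -0.02 and -0.04 over all genes. Against the vehicle arrays of 2 and 24 h, chosen after seeing the data, 2 were higher and 0 lower at 8 h (2.61% and 5.06% of all genes). The 8 h median was 0.36 with the brightest probe set, beside 0.00 over all genes. It was 0.29 with probe sets of a mean of at least 100, beside -0.01. Without probe sets of suffix _s_at or _x_at 0 were higher at 24 h. The cause of the other changes was not tested.

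With limma, 2 genes passed at an unadjusted p of 0.05, and 0 passed the adjusted threshold without the time block (no replicate block), which also called 4 genes of all. Leaving out the arrays of each time in turn gave 0 to 0 at the adjusted threshold and 1 to 6 at the unadjusted p (3.49% to 7.5% of all genes). With all genes above the floor tested 4 passed the unadjusted p (3.89% of all genes). Of 540 ratios of single named genes under alternatives, 465 moved by less than the spread between vehicle arrays and 75 moved by more. A change of sign was counted only for RRP9, MRTO4, PES1 and NOP58 at 8 h and NIP7 at 24 h, and was found in 0. Ratios that had not passed the rule could change sign uncounted. With quantile normalization that of WDR43 at 8 h went from -0.06 to 0.24, and that of POLR1A from -0.11 to 0.15. Some of the 465 could not move, since other floors and probe set summaries leave a gene with a single bright probe set unchanged. In all, 61 of 80 counts and 27 of 34 medians stayed within their limits.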

Other observations

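Ribosomal protein genes, the products of which the pathway assembles, changed little at 8 h. Of 34 above the floor, 2 were higher by the selection rule, RPS9 (0.56) and RPL18 (0.52), and 1 was lower, RPS24 (-1.12). The brightest probe set of RPS24 read 4878 with HGF and 6091 with vehicle at 8 h. That is a smaller difference than the gene ratio, which averages unlike probe sets. The shares of all genes at 8 h were 4.93% higher and 14.6% lower. At 24 h their median log2 ratio was -0.19 with 29 of 34 below 0, but with quantile normalization it was -0.01 with 19 of 34 below 0. MYC, the factor known to bind the E-box, read 1056, 1047 and 755 in the HGF arrays of 2, 8 and 24 h, against 608, 763 and 672 in the vehicle arrays. Its log2 ratio was 0.80, 0.46 and 0.17, and it did not pass the selection rule at any time. Of the MYC and MAX network MNT (0.54), a repressor that binds MAX, and MLX (0.78), a MAX-like protein, were higher at 8 h by the rule. These were 2 of 9 network genes above the floor, and 0 were lower, beside the same 4.93% and 14.6%. A relation between these values and the ribosome biogenesis genes was not tested.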
